A study of Rattus norvegicus with 320 samples.

Results

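miR-490 is a microRNA that takes up 2 of the 616 rows of the rat small RNA count table, 1 for each arm of its hairpin, rno-miR-490-3p and rno-miR-490-5p. The rows were taken by name, and the miRNA was chosen by its CPM (reads of a row for every 1000000 counted reads of a library) over 11 organs and 4 ages, so its levels by organ are given as a description with no test. The working name for it was a miRNA of heart and smooth muscle. By level, heart came first and brain next, and since these levels chose the miRNA, that order is no support for the name. Uterus had the highest levels of the smooth muscle miRNAs miR-143-3p and miR-145-5p. Its mean of miR-490-3p was lower than those of heart, brain and lung in CPM and on both other scales tried. Over all ages its range overlapped that of lung on each scale. Within an age, in CPM, both ranges overlapped at weeks 2 and 104, and uterus lay below lung without overlap at weeks 6 and 21. Whether smooth muscle cells hold miR-490 was not tested, since whole organs were sequenced.

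The libraries came from 16 female and 16 male Fisher 344 rats, an inbred laboratory strain, with no treatment or engineered allele in any group. Rats were 2, 6, 21 or 104 weeks old, and each gave adrenal gland, brain, heart, kidney, liver, lung, skeletal muscle, spleen, thymus and either testis or uterus. That makes 80 groups of 4 rats and 320 libraries, each from powder of a whole organ, so atrium and ventricle, or artery and airway, were not separated. In such bulk RNA a lower level from fewer cells of a type cannot be told apart from less RNA per cell.

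A miRNA gene is transcribed as a hairpin from which a 5p and a 3p strand of about equal length are cut, and the strand loaded into an Argonaute protein pairs with target mRNAs through its seed. miR-490 lies inside Chrm2, the gene for the muscarinic acetylcholine receptor M2, through which the vagus nerve slows the heart and which is also made in smooth muscle and in the brain. miR-208a, a miRNA encoded in the cardiac myosin gene Myh6, and miR-143 and miR-145, abundant in smooth muscle, served as markers for heart muscle and smooth muscle.

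The mature strands and the hairpin are shown because the counts are counts of these sequences. Capitals in the strands mark the seed (bases 2 to 8), capitals in the hairpin mark the strands themselves, and all 3 were taken from RefSeq, where both of the table's strands were found with the same letters.
rno-miR-490-3p: cAACCUGGaggacuccaugcug
rno-miR-490-5p: cCAUGGAUcuccaggugggu
rno-mir-490: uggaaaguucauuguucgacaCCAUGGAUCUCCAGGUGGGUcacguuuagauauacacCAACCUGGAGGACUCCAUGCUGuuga

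In the GRCr8 build the hairpin of 84 bases is at chr4:66014586-66014669 on the plus strand. The 3p strand of 22 bases is at chr4:66014644-66014665 and the 5p strand of 20 bases is at chr4:66014607-66014626. The reference annotated protein-coding Chrm2 around it on the same strand, and no other miRNA gene within 50 kb. No other miRNA of the table or of the reference had either seed, so neither row stood for a family whose reads could be split between near-identical copies.

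Library totals ran from 315550 to 10571766 counted reads, with no identical columns. The 3p strand was read 105248 times and was found in 313 of 320 libraries, and the 5p strand was read 2614 times and was found in 185. A brain library (male, week 6, replicate 3) and a spleen library (female, week 104, replicate 4) were left out under the rule that chose the members, and all results below are without them unless stated. The paper had removed both, since each clustered with uterus and not with its own organ. With the brain library kept, no call in brain changed. The labelled organs were checked against their markers: miR-208a-3p in 32 of 32 heart libraries, miR-206-3p in 32 of 32 skeletal muscle libraries, miR-124-3p in 31 of 31 brain libraries and miR-122-5p in 32 of 32 liver libraries were above every library of the other organs.

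Heart held most of the miR-490-3p in the series. Its level there was 756 ± 238 CPM (SD, n = 32), and 72.1% of all 3p reads came from heart libraries. Heart ranged from 450.2 to 1418 CPM and brain from 123 to 235 CPM, so that no heart library was as low as the highest brain library. At 178 ± 33.7 CPM (SD, n = 31), brain was 4.24-fold lower than heart and gave 16.9% of the reads. Lung followed at 46.6 ± 14.0 CPM (SD, n = 32, range 24.7 to 90.8). The ranges of heart, brain and lung did not overlap over all libraries or within any age.

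Below lung the order was less clear. Testis had 22.6 ± 14.1 CPM (SD, n = 16) and uterus 21.0 ± 10.1 CPM (SD, n = 16), and over all ages these neighbours overlapped. At week 104 they did not overlap, with testis at 0.948 to 5.38 CPM and uterus at 13.5 to 24.7 CPM. The testis range overlapped that of lung at weeks 6 and 21 and lay below it at weeks 2 and 104. Adrenal gland had 5.84 ± 4.20 CPM, thymus 4.36 ± 3.84, liver 3.71 ± 2.36 (SD, n = 32 each) and spleen 3.93 ± 2.43 (SD, n = 31), all overlapping one another. Uterus lay above adrenal gland without overlap at each of the 4 ages.

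Kidney and skeletal muscle were at the bottom, with 1.12 ± 0.667 and 1.05 ± 1.10 CPM (SD, n = 32 each). Skeletal muscle, a striated muscle like heart, had a mean 721-fold below that of heart. That mean rested on 75 reads over 32 libraries, 25 of them with at most 3 reads, so the fold is rough. Among the rows of the table ordered by mean level within an organ, miR-490-3p was 69th in heart, 179th in brain, 196th in uterus and 430th in skeletal muscle. It had no read in 2 liver and 5 skeletal muscle libraries. In the 5 skeletal muscle libraries, 3 reads, the limit that a count of 0 allows, would be 0.868 to 2.15 CPM, and in the liver libraries up to 4.42 CPM.

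**Figure D1:**
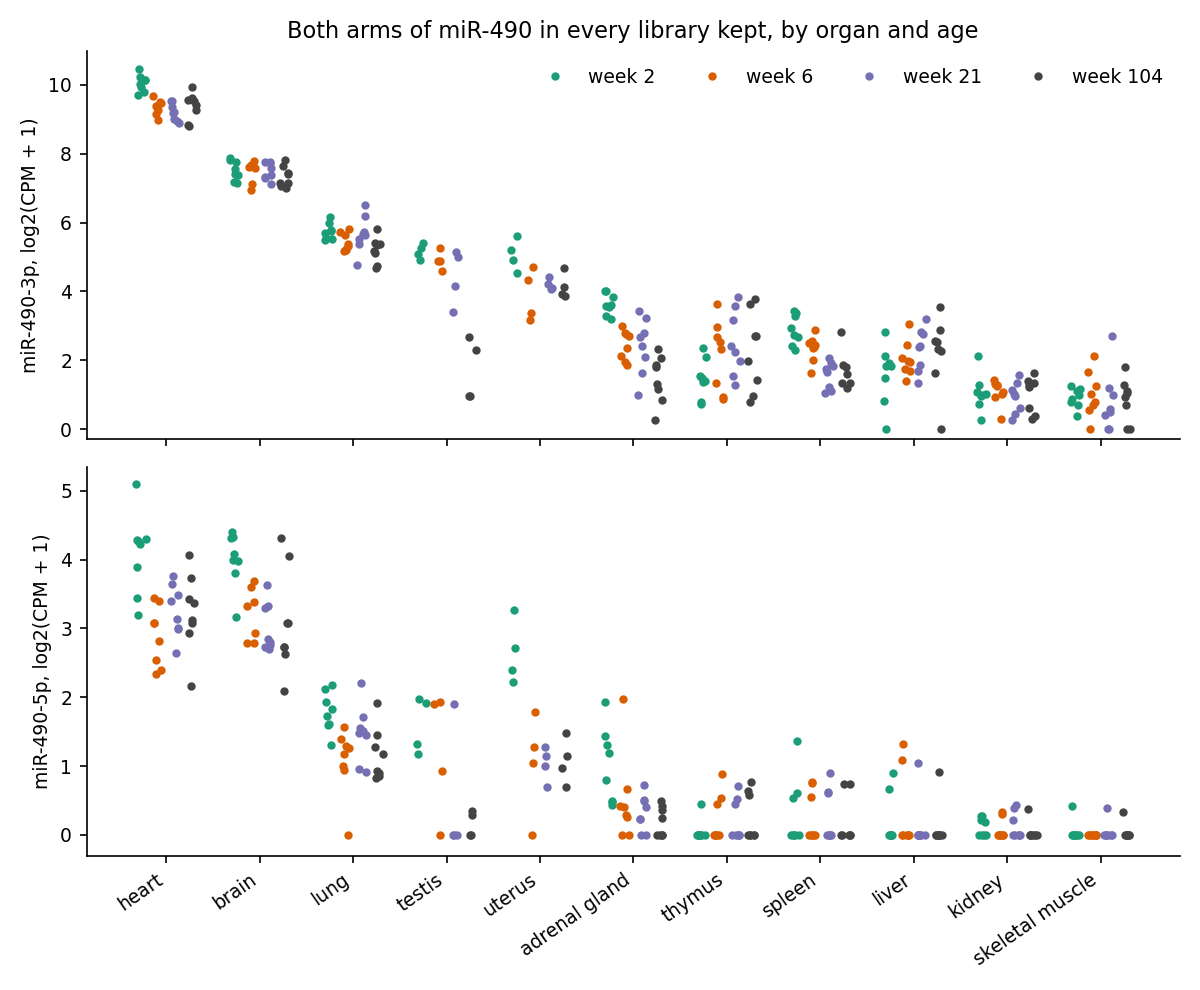
Level of the 3p strand (top) and the 5p strand (bottom) of miR-490 as log2(CPM + 1) in every kept library, by organ and coloured by age, 1 point a library. For the 3p strand the 32 heart points lie above all 31 brain points, which lie above all lung points, while for the 5p strand heart and brain share 1 range.

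The depth behind these values differed. The highest heart library (male, week 2, replicate 1) had 4910 reads, and its 1418 CPM had a 95% Wilson interval of 1379 to 1458. The lowest uterus library (week 6, replicate 2) had 38 reads, 8.06 CPM and an interval of 5.87 to 11.1. In the adrenal gland of an old female (week 104, replicate 4) a single read gave 0.213 CPM, with an interval of 0.0376 to 1.21. Intervals and floors cover counting error only.

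CPM depends on what else fills a library, and miR-143-3p alone averaged 405346 CPM in uterus, 198583 in lung, 167195 in heart and 30535 in brain. With miR-143-3p taken out of the total, heart averaged 908 CPM, brain 184, lung 58.3, uterus 34.7 and testis 25.9. With totals scaled by TMM (a trimmed mean of log ratios between libraries) over all kept libraries, the means were 701, 85.3, 40.3, 35.3 and 17.5. Both scales put uterus before testis, heart remained clear of brain in both, and under TMM brain (58.8 to 123.7) and lung (19.3 to 79.4) overlapped.

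The smooth muscle miRNA miR-145-5p, also made by fibroblasts, had another order over these organs, given as a description. Uterus had 3813 ± 1059 CPM of miR-145-5p (SD, n = 16), lung 1493 ± 326, heart 1490.3 ± 374 (SD, n = 32 each) and brain 290.0 ± 88.9 (SD, n = 31). For each 1000 reads of miR-145-5p, pooled over libraries, there were 614 reads of miR-490-3p in brain, 513 in heart, 31.6 in lung, 20.7 in testis and 4.97 in uterus. Heart and lung, with close levels of miR-145-5p, were 16.2-fold apart in miR-490-3p.

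The 5p strand was the minor one in every organ, and it separated heart from brain far less. Its level was 10.5 ± 5.97 CPM in heart (SD, n = 32), 10.1 ± 4.95 in brain (SD, n = 31), 2.25 in uterus, 1.73 in lung and 1.13 in testis. Of the reads of both strands, the 5p strand made up 1.37% in heart (95% Wilson interval 1.28 to 1.45, pooled reads), 5.04% in brain (4.73 to 5.36), 3.67% in lung (3.26 to 4.13) and 8.35% in uterus (7.26 to 9.59). Because 3p reads are in the denominator and their organ levels chose the miRNA, these shares are also a description.

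By age, the 5p share in single heart libraries stayed under every brain library of that age. At week 2 it was 0.858% to 3.06% in heart and 3.29% to 11.7% in brain. At week 6 it was 0.635% to 1.32% in heart and 2.94% to 5.56% in brain, at week 21 1.05% to 1.90% and 2.73% to 5.33%, and at week 104 0.769% to 2.25% and 2.46% to 10.05%. The 10.05% was that of a female brain (replicate 4) with 22 reads of the 5p strand. For this library the paper reports a proportion of miRNA far below the brain average. In uterus the mean share was 14.3% ± 4.34 at week 2 and from 5.68% to 6.83% at later ages (SD, n = 4).

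**Figure D2:**
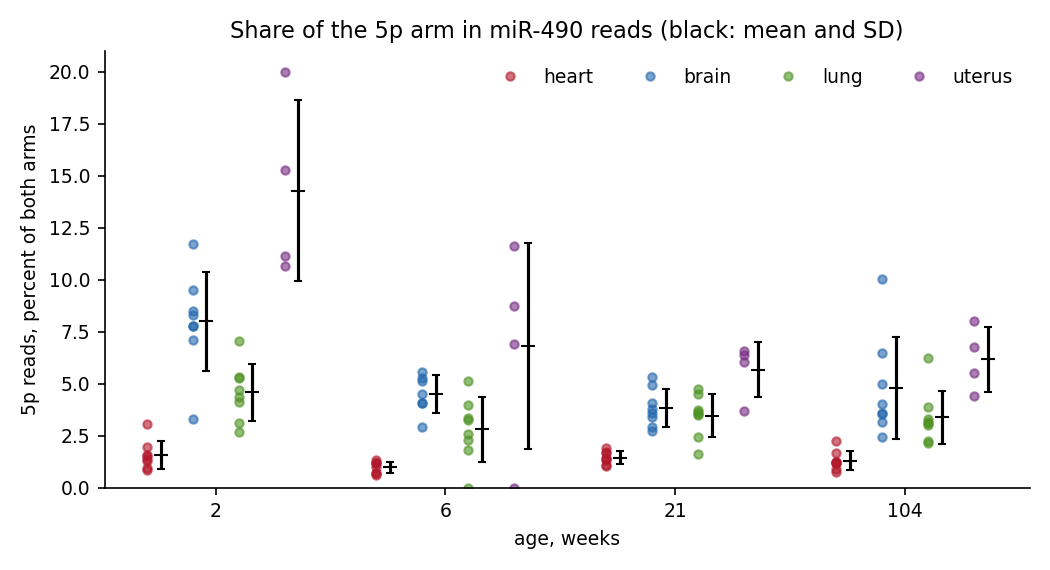
Share of the 5p strand among the reads of both strands of miR-490, in percent, by age in weeks for heart, brain, lung and uterus, 1 point a library with mean and SD in black. At each age all heart points lie under all brain points.

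The age means of these libraries were in view when miR-490 was chosen, so the tests of age steps below place each step against the spread between rats and are no independent support. Each organ was fitted on its own with edgeR's quasi-likelihood test over all 616 miRNAs, TMM scaling and Benjamini-Hochberg adjustment, for the 6 organs whose libraries had a median of at least 10 reads of the 3p strand.

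In heart, miR-490-3p in CPM was highest at week 2 and roughly level afterwards. At week 2 the 4 female hearts had 981, 1137, 832 and 1133 CPM and the 4 male hearts 1418, 1049.9, 886 and 1199.7 CPM. At week 6 the females had 509.6, 824, 728 and 621 CPM and the males 564, 713, 671 and 661 CPM. The groups of 8 did not overlap, and their means were 1079.7 ± 187 and 662 ± 98.5 CPM. At week 21 the range was 475 to 741 CPM and at week 104 450.2 to 974 CPM, both overlapping week 6.

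On the TMM scale the step from week 2 to week 6 was much smaller and did not pass the test. The log2 fold change was -0.18 (SE 0.11, adjusted p = 0.221), where 19.3% of all miRNAs were called lower and 20.5% higher. Scaled by library size alone, it was -0.70 (SE 0.14, adjusted p = 7.04e-05), and on that scale the median miRNA of heart moved by -0.46, against 0.05 with TMM. DESeq2 gave -0.33 (adjusted p = 0.00760), and edgeR with TMM on miRNAs averaging 10 or more reads gave -0.27 (adjusted p = 0.0390). Each setting tried gave a lower level at week 6. The call was made in these 3 settings and not with lane as a covariate, with the replicate block or without any 1 replicate number. The later steps in heart were 0.03 (SE 0.11, adjusted p = 0.938, 9.58% of miRNAs called higher and 15.1% lower) and 0.04 (SE 0.11, adjusted p = 0.942, 3.57% higher and 2.11% lower).

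The 5p strand in heart fell by 0.82 on the log2 scale from week 2 to week 6 (SE 0.23, adjusted p = 0.00404), from 17.3 ± 7.62 to 6.69 ± 2.26 CPM (SD, n = 8). The highest library at week 2 was a male heart with 33.1 CPM, and the other 7 of that age had 8.13 to 18.8 CPM. From week 6 to week 21 its change was 0.60 (adjusted p = 0.0595) and from week 21 to week 104 -0.14 (adjusted p = 0.849). Without replicate 2 of every group, the step from week 6 to week 21 was 0.84 (adjusted p = 0.0181).

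Brain changed little in CPM with age, with means of 186, 181, 182 and 164 CPM at weeks 2, 6, 21 and 104. The log2 steps of the 3p strand were 0.25 (adjusted p = 0.160), 0.17 (adjusted p = 0.421) and -0.18 (adjusted p = 0.494), where 42.9%, 18.5% and 2.92% of all miRNAs were called. The 5p strand there averaged 15.6 ± 3.95 CPM at week 2 (SD, n = 8) and 8.56 ± 2.46 at week 6 (SD, n = 7), a step of -0.56 that did not pass (adjusted p = 0.0950). Its later steps were -0.07 (adjusted p = 0.914) and 0.13 (adjusted p = 0.886). Brain libraries of week 6 were sequenced in 2 lanes only, so that age and lane were close to each other there.

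A joint edgeR fit of heart and brain, added because brain came second, compared their steps directly. From week 2 to week 6 the change in heart was lower than that in brain by 0.60 on the log2 scale (log2 difference -0.60, SE 0.21, adjusted p = 0.0355), where 20.1% of miRNAs were called. With libraries of the same sex, age and replicate number taken as 1 rat and used as a block, it was -0.57 (adjusted p = 0.0848). With lane as a covariate it was -0.35 (adjusted p = 0.241), so the call held in neither. It was also lost without replicate 1 (-0.44, adjusted p = 0.225) and without replicate 2 (-0.58, adjusted p = 0.166). The differences at the later steps were -0.27 (adjusted p = 0.457, 14.3% called) and 0.47 (adjusted p = 0.184, 3.90% called). With lane as a covariate the first of these was -0.61 (adjusted p = 0.0296).

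**Figure D3:**
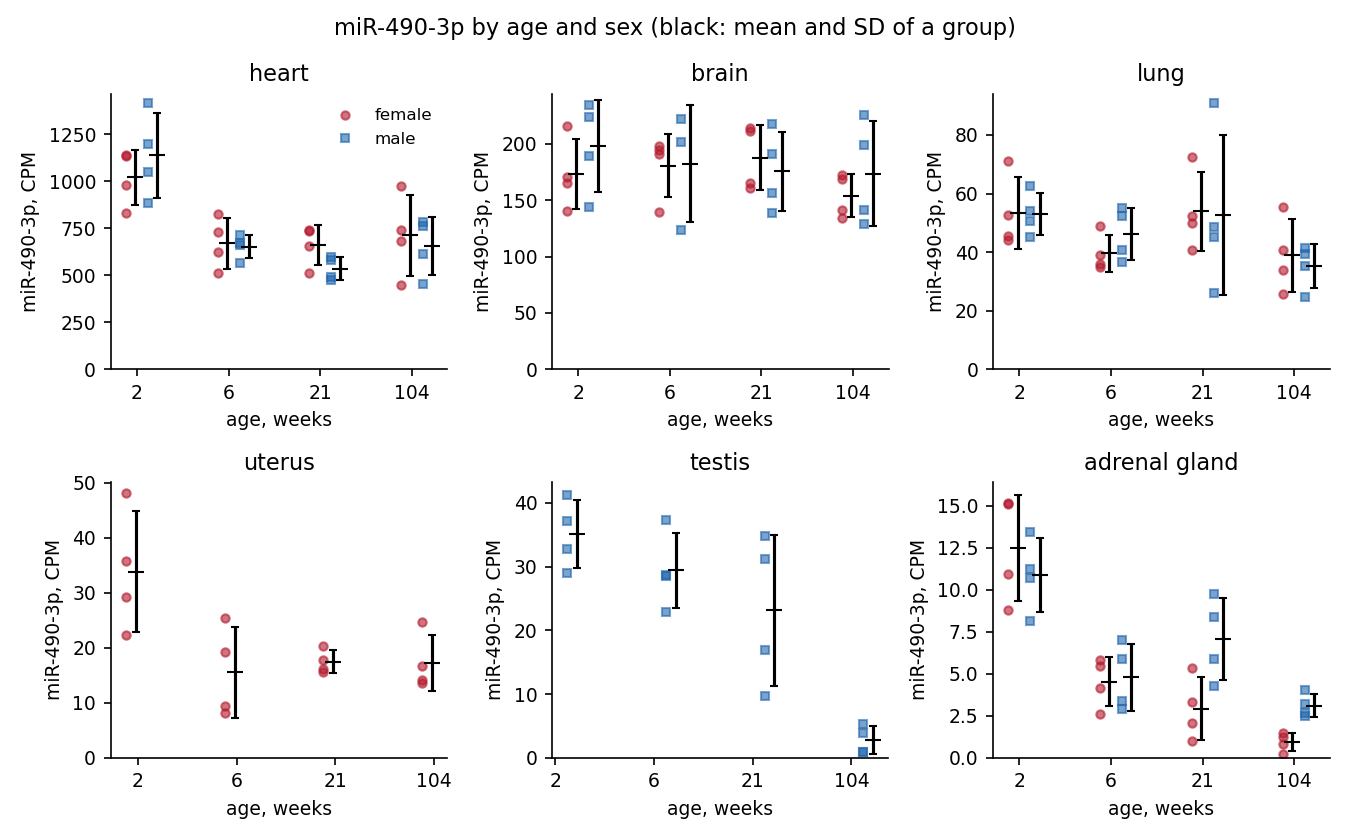
miR-490-3p in CPM by age in weeks in heart, brain, lung, uterus, testis and adrenal gland, 1 point a library, females as circles and males as squares, with the mean and SD of each group in black. Heart stands highest at week 2, brain is flat, and testis and adrenal gland are lowest at week 104.

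Uterus, a smooth muscle organ, had its highest mean in CPM in the youngest rats. The 4 libraries of week 2 had 35.7, 29.2, 48.1 and 22.3 CPM, and those of week 6 had 19.2, 8.06, 9.37 and 25.4 CPM, so that the groups overlapped. At week 21 they had 17.8, 20.3, 16.2 and 15.6 CPM and at week 104 24.7, 13.5, 16.6 and 14.1 CPM. The step from week 2 to week 6 was -0.64 (SE 0.34, adjusted p = 0.160, 19.6% of miRNAs called lower) with TMM and -1.12 (adjusted p = 0.0167) by library size alone. The later steps were 0.16 (adjusted p = 0.890, 4.38% called higher and 4.71% lower) and 0.57 (adjusted p = 0.308, 3.57% higher and 9.58% lower). In those same uteri miR-143-3p averaged 261841 CPM at week 2 and 444381 CPM at week 6, and its part in the lower CPM of miR-490-3p at week 6 was not tested beyond the change of scale.

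No age step of miR-490-3p was found to differ between female heart and uterus. In 1 edgeR fit of both, the log2 differences were 0.43 (adjusted p = 0.500), 0.17 (adjusted p = 0.898) and -0.52 (adjusted p = 0.454) in the order of the steps, and 6.49%, 2.11% and 6.98% of miRNAs were called. The SE of each difference was 0.36 to 0.37, so a difference of that size was not detectable with 4 rats a group.

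The lists of muscle miRNAs were counted at the same heart steps. Of 6 heart muscle rows (the arms of miR-208a, miR-208b and miR-499), 2 were higher and 2 lower in heart at week 6 than at week 2, where 20.5% of all miRNAs were higher and 19.3% lower, with a median log2 change of 0.16 against 0.05 over all miRNAs. miR-208b-3p, encoded in the slow myosin gene Myh7, fell by 2.33 on the log2 scale (adjusted p = 2.65e-16), from 10043 to 1344 CPM. miR-208a-3p rose by 0.92 (adjusted p = 9.13e-07), from 837 to 1102 CPM. Of 6 striated muscle rows 2 were higher and 1 lower, the last being miR-206-3p, and of 4 smooth muscle rows 1, miR-145-3p, was higher by 0.62 (adjusted p = 0.0204), with medians of 0.08 and 0.23. In lists of 6 or 4 rows, none of these counts is read as apart from those shares of all miRNAs. By library size alone 1 heart muscle row was higher, and in the striated and smooth muscle lists none was higher and 2 each were lower.

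At the later heart steps some rows of these lists passed. From week 6 to week 21 the heart muscle list had 1 higher and 2 lower of 6, with miR-208a-3p changed by -0.60 (adjusted p = 0.000767). The striated list had 3 higher of 6 and the smooth muscle list none of 4, where 9.58% of all miRNAs were higher and 15.1% lower. The lists' medians were 0.20, 0.56 and 0.23, against -0.06 over all miRNAs. From week 21 to week 104 miR-208b-3p rose by 1.56 (adjusted p = 8.92e-11), 2 heart muscle rows were higher and 1 lower, 1 striated row was lower and no smooth muscle row passed, where 3.57% of all miRNAs were higher and 2.11% lower, with medians of -0.10, -0.32 and -0.18 against 0.05. By library size alone no heart muscle row and 1 striated row was higher at week 21, and no row of these lists was lower at week 104.

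In uterus, all 4 smooth muscle rows rose from week 2 to week 6, where 12.5% of all miRNAs were called higher, while miR-490-3p was at -0.64 without passing. miR-143-3p rose by 1.34 (adjusted p = 7.57e-05) and miR-145-5p by 0.89 (adjusted p = 0.0240). By library size alone 1 of the 4 was called higher, and with lane as a covariate 2. Of the other lists, 2 of 6 striated rows and none of 6 heart muscle rows were higher. The medians were 0.89 for the smooth, 0.55 for the striated and 0.16 for the heart muscle list, against -0.15 over all miRNAs. No member of the 3 lists passed at the later uterus steps.

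**Figure D4:**
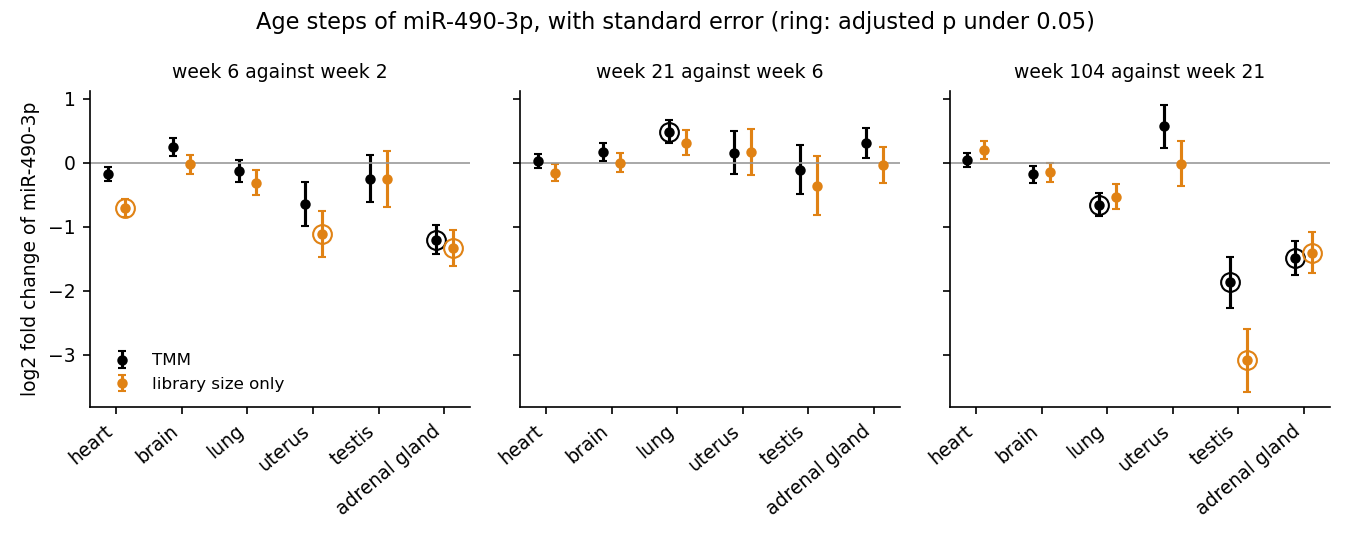
Log2 fold change of miR-490-3p with its standard error at each age step in 6 organs, from edgeR with TMM (black) and with library size only (orange), a ring marking an adjusted p under 0.05. In heart from week 2 to week 6 the TMM value is -0.18 without a ring and the library size value -0.70 with one, while adrenal gland at that step and testis and adrenal gland at the last step carry rings on both scales.

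For the 3p strand, the steps that passed both with TMM and by library size alone were in testis and adrenal gland. In testis the week 21 libraries had 34.7, 31.2, 9.64 and 17.0 CPM and the week 104 libraries 5.38, 3.91, 0.958 and 0.948 CPM, without overlap. The last 2 of these rested on 7 reads each. The log2 fold change was -1.87 (SE 0.41, adjusted p = 0.000754), where 24.8% of miRNAs were called lower. By library size alone it was -3.09. On that scale the median of the miRNAs averaging 10 or more reads moved by -1.04, against 0.21 with TMM. The paper reports that piRNA, another class of small RNA, made up most reads of testis libraries of adolescent and adult rats. The part of this change in library content in the step was not tested. In the same old testes miR-145-5p had a log2 change of -1.10 (adjusted p = 9.45e-05) and miR-143-3p of -0.89 (adjusted p = 0.0163), while miR-208a-3p was higher, at 17.9 against 1.23 CPM. All 4 smooth muscle rows and 2 of 6 striated rows were lower there, and 2 of 6 heart muscle rows, both arms of miR-208a, were higher. The share of all miRNAs called higher at that step was not counted. The part of these muscle rows in the fall of miR-490-3p was not tested. The earlier testis steps were -0.25 (adjusted p = 0.607, 45.3% called) and -0.11 (adjusted p = 0.955, 3.73% called).

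Adrenal gland fell from 11.7 ± 2.65 CPM at week 2 to 4.66 ± 1.62 at week 6 and 2.02 ± 1.299 at week 104 (SD, n = 8). The first step was -1.20 (SE 0.23, adjusted p = 9.97e-05, 17.2% of miRNAs called lower) and the last -1.49 (SE 0.27, adjusted p = 0.000166, 7.95% called lower). Between them, week 21 had 4.99 ± 2.99 CPM, a step of 0.31 (adjusted p = 0.416, 19.6% called in either direction). At that middle step 4 of 6 striated rows, 2 of 6 heart muscle rows and 1 of 4 smooth muscle rows were higher, and none was lower. The medians of these lists were 2.18, 0.49 and 0.36. At the last step 3 of 6 striated rows were also lower (miR-1-3p at -2.15, adjusted p = 0.0340, miR-133b-3p at -1.84, adjusted p = 0.0432, and miR-206-3p at -2.64, adjusted p = 0.0420), as were 1 of 6 heart muscle rows (miR-499-5p at -0.83, adjusted p = 0.000123) and 1 of 4 smooth muscle rows (miR-145-5p at -0.44, adjusted p = 0.0442). The striated list summed to 42.1 to 1668 CPM at week 21 and 34.1 to 276 CPM at week 104, and its part in the fall of miR-490-3p was not tested. At the first step no row of the 3 lists was lower, and 2 heart muscle rows, both arms of miR-499, were higher. The share of all miRNAs called higher at the first step was not counted. No setting, left-out replicates included, ended the call of miR-490-3p at the first or the last step.

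In lung the 3p strand was higher at week 21 than at week 6 by 0.49 (SE 0.18, adjusted p = 0.0438, 10.2% called higher) and lower at week 104 than at week 21 (log2 fold change -0.65, SE 0.18, adjusted p = 0.0196, 6.33% called lower). The means were 43.0, 53.3 and 37.0 CPM, and all 3 ages overlapped. At the second of these steps 5 of 6 striated rows and 3 of 6 heart muscle rows were lower as well, and none of 4 smooth muscle rows passed. Among them were miR-206-3p at -3.15 (adjusted p = 0.000504), miR-133a-3p at -1.87 (adjusted p = 0.00114), miR-133b-3p at -1.89 (adjusted p = 0.00249) and miR-208a-3p at -1.06 (adjusted p = 0.0285). At the first, miR-133b-3p (1.08, adjusted p = 0.0452) and miR-499-5p (0.66, adjusted p = 0.0293) were higher. The striated list summed to 1993 to 17108 CPM in lung at week 21 and 467 to 5647 CPM at week 104, and its part in the lung steps of miR-490-3p was not tested. Both calls were lost with lane as a covariate (adjusted p = 0.172 and 0.0515) and by library size alone (adjusted p = 0.257 and 0.0720). Without replicate 2 the steps were 0.26 (adjusted p = 0.364) and -0.47 (adjusted p = 0.133). Without replicate 1 or 4 both calls were also lost, and without replicate 3 the second. The step from week 2 to week 6 was -0.13 (adjusted p = 0.616, 35.6% called).

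Lung and thymus libraries also held a heart muscle miRNA, in amounts that moved with miR-490-3p. miR-208a-3p was at 15.7 ± 9.41 CPM in lung and 2.81 ± 3.77 CPM in thymus (SD, n = 32 each), against 796 ± 264 CPM in heart, 0.519 in brain, 0.304 in uterus and 0.249 in adrenal gland. Testis had 6.15 ± 9.42 CPM (SD, n = 16), and there the 2 miRNAs went apart with age. At week 104 testis had its highest mean of miR-208a-3p, 17.9 CPM, and its lowest of miR-490-3p, 2.80 CPM. The relation below was computed for lung and thymus only. In lung miR-208a-3p was 17.8, 22.15 and 11.7 CPM at weeks 6, 21 and 104. Across the 32 lung libraries the log2(CPM + 1) values of miR-490-3p and miR-208a-3p had Pearson's r = 0.67 (permutation p = 6e-05, adjusted p = 8e-05) and Spearman's rho = 0.53 (permutation p = 0.00192, adjusted p = 0.00192), and r = 0.88 after group means were taken off. Without the 2 libraries farthest from the median of miR-208a-3p, r was 0.50.

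In the 32 thymus libraries r was 0.91 (permutation p = 2e-05, the smallest these permutations can give, adjusted p = 4e-05), rho was 0.88 (permutation p = 2e-05, adjusted p = 4e-05), r was 0.88 without the 2 farthest libraries and 0.85 with group means taken off. Of the 32 thymus libraries, 23 had any read of miR-208a-3p, and 9 had at most 3 reads of miR-490-3p. The permutations ran over all libraries of an organ regardless of sex and age, so their p-values do not allow for the groups. No p-value was computed with group means taken off. Both relations were computed after the levels had been seen. The part of heart muscle RNA in the lung and thymus levels of miR-490-3p was not tested. In brain, uterus and adrenal gland miR-208a-3p was nearly absent, with no library above 1.84, 0.954 and 1.42 CPM.

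**Figure D5:**
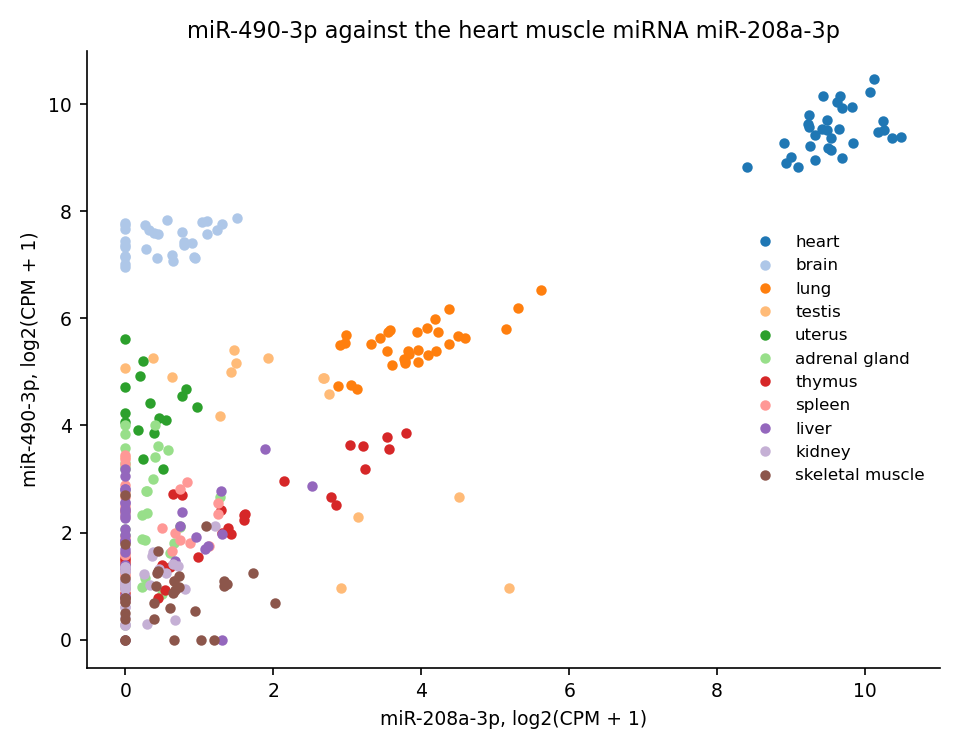
miR-490-3p against the heart muscle miRNA miR-208a-3p, both as log2(CPM + 1), 1 point a library coloured by organ. Heart lies high on both axes, brain is high in miR-490-3p with at most 1.84 CPM of miR-208a-3p, and lung and thymus libraries spread along a rising line.

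The sexes differed in adrenal gland. Averaged over the ages, the level was higher in males by 0.94 on the log2 scale (SE 0.18, adjusted p = 0.000788), where 2.76% of miRNAs were called higher, and by 0.74 (adjusted p = 0.0528) by library size alone. Females and males at week 2 averaged 12.5 ± 3.14 and 10.9 ± 2.17 CPM, and at week 6 4.53 and 4.80 CPM (SD, n = 4). The gap came later. At week 21 females had 0.975, 2.09, 3.31 and 5.33 CPM and males 5.87, 4.29, 9.71 and 8.37 CPM. At week 104 females had 1.23, 1.47, 0.813 and 0.213 CPM, from 1 to 6 reads each, and males 3.19, 2.67, 4.06 and 2.50 CPM, from 11 to 24 reads each.

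The sexes overlapped at week 21 and not at week 104. The sex by age test passed (adjusted p = 0.0335, 2.11% of miRNAs called), but not with lane as a covariate (adjusted p = 0.426), by library size alone (adjusted p = 0.284), with the replicate number as a block (adjusted p = 0.0634) or without any 1 replicate number (adjusted p = 0.0602, 0.136, 0.335 and 0.0553 without replicates 1 to 4). In the same fit miR-143-3p was higher in male adrenal glands by 0.44 (adjusted p = 0.0481) and miR-145-5p by 0.37 (adjusted p = 0.0416), and their part in the sex difference of miR-490-3p was not tested.

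In heart, brain and lung, the other organs of both sexes with enough reads for the test, no sex difference passed. In heart it was -0.12 for the 3p strand (male against female, SE 0.08, adjusted p = 0.770, 0.649% of miRNAs called) and -0.11 for the 5p strand (adjusted p = 0.968). In brain it was 0.08 (adjusted p = 0.844, 0.325% called) and 0.15 (adjusted p = 0.847), and in lung 0.01 for the 3p strand (adjusted p = 1.00, 0.162% called), a sign that changed with the setting. The sex by age tests gave an adjusted p of 0.709 (3p) and 0.363 (5p) in heart with 1.3% of miRNAs called, 0.878 and 0.940 in brain with 1.62% called, and 0.934 in lung for the 3p strand with 1.14% called.

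The organs with fewer reads had no test, and their sexes are given as values. In thymus females averaged 1.80, 1.84, 3.11 and 2.74 CPM and males 2.12, 7.10, 8.57 and 7.64 CPM at weeks 2, 6, 21 and 104. At week 6 females had 0.833 to 4.06 CPM, from 2 to 8 reads each, and males 4.72 to 11.5 CPM, from 6 to 27 reads each, without overlap, and at the other ages the sexes overlapped. The striated muscle list summed to 73.3 to 471 CPM in the thymus of week 6 females and 283 to 546 CPM in that of males, and its part in the sex difference was not tested. In spleen, kidney and skeletal muscle the sexes overlapped at each age. In liver they overlapped except at week 2, where females had 2.58 to 6.06 CPM and males 0 to 2.57 CPM, from at most 7 reads.

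The miRNAs most like miR-490-3p were sought over the 44 means of an organ at an age on the log2(CPM + 1) scale, among the 459 rows averaging 10 or more reads a library. The means share libraries and depth across miRNAs, and r is given as a description. The 5 nearest were miR-125b-5p (r = 0.74), miR-208a-5p (0.70), miR-208a-3p (0.70), miR-100-5p (0.66) and miR-676 (0.65). miR-125b-5p and miR-100-5p were higher in brain than in heart, at 13822 against 6326 CPM and 9766 against 7330.0 CPM.

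Heart decided part of that order. Over the 40 means without heart the nearest were miR-879-3p (0.87), miR-92b-3p (0.86) and miR-879-5p (0.86), and miR-208a-3p went from place 3 to place 223. By ranks (Spearman), 2 of the 5 and none of the 3 stayed among the nearest, and without heart miR-34c-3p, miR-34c-5p and miR-34b-3p led. The 4 rows of miR-143 and miR-145 took places 89 to 148 over all organs and 221 to 309 without heart.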

How the data were processed

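Small RNA libraries (TruSeq) were made from total RNA of 320 rat organ samples. Per the labels and the study's methods, the authors trimmed reads with fastp 0.23.2, aligned them with Bowtie 1.3.1 against miRBase and the rn7 genome, and deposited raw counts per miRNA and library, without miRNAs that averaged under 1 read a library. Reads without molecular identifiers are not independent molecules. Coordinates printed here are from the RefSeq GRCr8 annotation and were not compared with rn7.

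CPM was computed as counts over the column total. Age, sex and joint fits used the raw counts in edgeR 4.0.16 (R 4.3.3, TMM, glmQLFTest) on all 616 miRNAs, 1 fit an organ, groups of sex by age, with Benjamini-Hochberg adjustment within each contrast and a threshold of 0.05. Rats of a group were the replicates. The fits were tested on simulated data. Alternatives were library size only, DESeq2 1.42.0, a mean count of at least 10, lane (from the study's sample table) as a covariate, the replicate number as a block and leaving out each replicate number. In the joint fits the block was sex, age and replicate number together. Correlations used 100000 permutations and a pseudocount of 1 (Python 3.11.15, SciPy 1.17.1).

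The miRNA, its marker lists and the alternatives were chosen with earlier results of these data known. Named miRNAs were both rows of miR-490, the members of the heart, striated and smooth muscle lists, and the 5 most like miR-490-3p by Pearson's r over organ and age means (3 without heart). The heart and brain fit, the 5p fits and the relation with miR-208a-3p were added after the counts were seen. 2 libraries were left out by the rule.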

Additional observations from a re-analysis of the deposited data

Results flagged for a closer look

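In 5 of 54 checks, each of 1 strand in 1 group of 4 rats, 1 library stood far from the other 3, by a gap that chance gives in about 1 in 20 groups. For the 3p strand this was a female brain of week 6 (replicate 3) with 139 CPM, where the others had 191 to 198 CPM. For the 5p strand it was a female brain of week 104 (replicate 4) with 18.9 CPM from 22 reads, where the others had 5.20 to 5.64 CPM. This was the brain library with the lowest total of counted reads, 1164462. The paper reports that its proportion of miRNA was far below the brain average. A female brain of week 21 (replicate 4) had 9.07 CPM of the 5p strand against 5.63 to 6.19 CPM. A male heart of week 2 (replicate 2) had 33.1 CPM against 17.7 to 18.8 CPM, and a male heart of week 6 (replicate 2) had 9.52 CPM against 4.05 to 4.82 CPM.

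Of 12 tests of a difference between groups, 2 passed with edgeR. The sex difference of miR-490-3p in adrenal gland changed with age (adjusted p = 0.0335), and the step from week 2 to week 6 differed between heart and brain (log2 difference -0.60, adjusted p = 0.0355). Both calls were lost in several settings given with the results.

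The spleen library that was left out (female, week 104, replicate 4) had 108 CPM of miR-490-3p from 928 reads, where the kept spleen libraries had 1.06 to 9.89 CPM. It had 59.4 CPM of miR-208a-3p and 981 CPM of miR-124-3p, and over all miRNAs its profile was closest to the mean of lung. The brain library that was left out had 149 CPM of miR-490-3p, inside the brain range, and 42.0 CPM of miR-208a-3p, where no kept brain library was above 1.84 CPM. Its profile was closest to the mean of brain. Neither library was thus nearest to uterus by this measure, whereas the clustering of the paper placed both there.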

How the results depend on the processing

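The order heart, brain, lung was the same in CPM, TMM-scaled CPM and CPM without miR-143-3p. Uterus averaged 35.3 CPM with TMM and 34.7 CPM without miR-143-3p, brain averaged 85.3 CPM with TMM, and female heart was 20.6-fold and 26.5-fold above uterus on these scales, against 36.5-fold in CPM. Over all alternatives, 364 recomputed values of miR-490 kept their direction and their side of the threshold, 24 lost a call, 8 gained one, 29 changed sign and 5 levels moved by more than the spread.

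By library size only, these log2 changes were called: heart from week 2 to 6 at -0.70, uterus from week 2 to 6 at -1.12 and the 5p strand in brain from week 2 to 6 at -0.84. DESeq2 called the first heart step at -0.33 and the 5p strand in brain at -0.64, and a mean count of at least 10 called the heart step at -0.27. By library size only, these lost their call: lung from week 6 to 21 at 0.32 and from week 21 to 104 at -0.53, the adrenal sex difference at 0.74 and adrenal sex by age at an adjusted p of 0.284. These steps, not called in either setting, changed sign by library size only: adrenal gland from week 6 to 21 at -0.033, brain from week 2 to 6 at -0.026, heart from week 6 to 21 at -0.15, uterus from week 21 to 104 at -0.018, heart against uterus at the second step at -0.19 and at the third at 0.12, and the 5p strand in heart from week 21 to 104 at 0.0058.

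With lane as a covariate the lung steps were 0.38 and -0.57 and adrenal sex by age had an adjusted p of 0.426, all no longer called. Heart against brain was -0.35 at the first step, no longer called, and -0.61 at the second, now called. Steps not called changed sign: heart from week 6 to 21 at -0.078, testis from week 6 to 21 at 0.20, heart against uterus at the second step at -0.024, the 5p strand in brain from week 6 to 21 at 0.27, and the lung sex difference at -0.024. That sex difference was -0.048 with DESeq2 and -0.0047 with a mean count of at least 10. With that minimum heart against uterus was -0.076 at the second step and heart against brain -0.52 at the first, no longer called. The 5p strand in heart had no value there, since its mean count over the table is under the minimum.

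Leaving out 1 replicate number gave these ranges. Adrenal sex by age had an adjusted p from 0.0553 to 0.335. Lung steps ran from 0.26 to 0.63 and from -0.69 to -0.47, and its sex difference from -0.080 to 0.044. Heart from week 21 to 104 ran from -0.0098 to 0.076, testis from week 6 to 21 from -0.32 to 0.17, uterus from week 6 to 21 from -0.13 to 0.48. Heart against uterus ran from -0.12 to 0.88, -0.11 to 0.39 and -0.89 to 0.0073, and heart against brain at the first step from -0.75 to -0.44. The 5p strand in brain ran from -0.38 to 0.12 and -0.15 to 0.30 at the last steps, and in heart from 0.47 to 0.84 from week 6 to 21 and from -0.36 to 0.11 between the sexes. The causes of these changes were not tested.

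Replicate numbers were not stated to name the same rat in every organ. Same-numbered libraries of heart and uterus deviated together in 3 of 16 pairs (correlation over 0.1, median -0.08), and those of heart and brain in 4 of 31 (median 0.04). Each rat gave several organs, and low correlation cannot show that equal numbers name different rats. The main joint fits took no pairing and treated the organs as independent. With the replicate number as a block, adrenal sex by age had an adjusted p of 0.0634, not called. With sex, age and replicate number together as the block, heart against brain at the first step was -0.57, not called. These blocks changed no other call. Depth limits adrenal gland, testis at week 104 and the 5p strand, where single libraries rest on few reads.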
